A study of Acer rubrum with 15 samples.

Results

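The plant microRNAs miR170 and miR171 were followed in leaves of Acer rubrum 'Autumn Blaze', a red maple with brilliant autumn foliage. They were taken from a deposited table of small-RNA reads as the mature and hairpin entries whose name begins with miR170 or miR171 and then has no further digit. This gave 23 entries of 343 mature and hairpin entries and of 8849 entries in all. There were 2 entries of miR170 and 21 of miR171, or 11 mature and 12 hairpin entries under 12 names. All but miR171a-3p_1, which was listed as a hairpin only, had both kinds.

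Plant microRNAs are cut from hairpin precursors as a duplex, of which the guide strand is loaded into ARGONAUTE1 and pairs with messenger RNAs. The guide strands of miR170 and miR171 lie on the 3p arm and differ little in sequence, and they direct cleavage of transcripts of GRAS transcription factors, the SCARECROW-LIKE or HAIRY MERISTEM proteins. In Arabidopsis these factors maintain the shoot meristem, act on branching and leaf development, and repress chlorophyll synthesis through protochlorophyllide oxidoreductase. The 5p strand, such as miR170-5p, comes from the opposite arm of the hairpin.

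Leaves of cuttings, kept before in an ordinary greenhouse, were sampled on day 0 (Control) and after 14 days under 4 regimes that crossed light with temperature. The warm days of 30 °C had nights of 20 °C, and the cool days of 15 °C had nights of 5 °C. CC was warm with 100% light, CL warm with 40% light, LC cool with 100% light and LL cool with 40% light. The labels give no light level for Control, and all 5 groups are the same cultivar, with 3 libraries each and 15 in all. They call the libraries biological replicates without naming the plants behind them, so a p-value here speaks only of the spread among these libraries, which may be technical. The libraries are of whole leaf tissue, in which fewer cells of a type and less RNA per cell cannot be told apart, and small RNA offers no leaf marker transcripts against which to check the tissue.

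The libraries held 15652847 to 20822592 reads, of which 1883421 to 4300496 were assigned to mature, hairpin or predicted miRNAs. The miR170 and miR171 entries took 3925 to 9714 of these, or 0.143% to 0.352%. Levels of single miRNAs are given in CPM, the reads scaled to a common library total, here that of the mature and predicted miRNA reads, after trimmed-mean scaling (TMM), as mean ± SD over n = 3 libraries. Log2 differences are given ± SE, and adjusted p-values come from edgeR's quasi-likelihood test over all 15 libraries with Benjamini-Hochberg adjustment over all miRNAs tested, an adjusted p under 0.05 being a call. LC replicate 1 stood apart from its group: the copper-related miR398 took 32.6% of its reads of named families, against 8.33% and 6.16% in the other LC libraries. That share lay in the range of LL (29.9% to 45.2%) and just below that of Control (33.1% to 48.2%), and above CC and CL (1.13% to 5.50%). Several comparisons that touch LC are therefore also given without that library. Some that hold no LC library are given so too, since all groups share the spread and scaling of the fit. Comparisons with the same group share its 3 libraries, so their results are not independent of each other.

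Most of the reads belonged to few names. The 21 miR171 entries held 92500 reads over all libraries, 99.5% of the member reads, and the 2 miR170 entries 432 reads (0.465%). Mature miR171b-3p_2, a name that the table gives to the potato sequence stu-miR171b-3p and the tomato sequence sly-miR171e, held 54964 reads or 59.1%. Its hairpin entry held 17992 reads (19.4%). Mature miR171b_2, which stands for 86 names from other plants, held 13330 reads (14.3%). The mature entry miR170-5p stands for 9 names, among them ath-miR170-5p and ath-miR171a-5p of Arabidopsis, so its reads cannot be split between the opposite strands of miR170 and of miR171a. Of the 23 entries, 7 had reads in every library and 9 stayed under 10 reads in every library. After the filter on low counts, 6 of the 11 mature entries and 5 of the 12 hairpin entries were tested.

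miR171b-3p_2 was the most abundant guide-strand name in each library, and it was highest in cool full light and lowest in warm shade. It stood at 2221, 1947 and 1709 CPM in the LC libraries (5534, 5162 and 3752 reads), at 826, 1396 and 1377 CPM in CC (2592, 3385 and 3448 reads), and at 857, 890.4 and 1120.5 CPM in CL (2395, 2560 and 3273 reads). It stood at 937, 1014 and 1550.1 CPM in LL (2472, 2289 and 4198 reads) and at 1858, 1429.8 and 1717 CPM in Control (4540, 3802 and 5562 reads). All 3 LC libraries lay above the 9 libraries of the other regimes, whereas LC and Control overlapped. The means ran from 1959 ± 256 CPM in LC through 1668 ± 218 in Control, 1199.6 ± 324 in CC and 1167 ± 334 in LL to 956 ± 144 in CL, and no 2 neighbours in that order differed by the test (adjusted p = 0.513, 0.220, 0.942 and 0.447).

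Of the 6 pairs of groups further apart in that order, 4 differed, while LL against Control (-0.52, adjusted p = 0.167) and CL against CC (-0.33, adjusted p = 0.420) did not pass. miR171b-3p_2 was 1.63-fold higher in LC than in CC (log2 difference 0.71 ± 0.25, adjusted p = 0.0402) and 2.05-fold higher in LC than in CL (1.04 ± 0.26, adjusted p = 0.00641). It was 1.68-fold lower in LL than in LC (-0.75 ± 0.25, adjusted p = 0.0272) and 1.75-fold lower in CL than in Control (-0.80 ± 0.25, adjusted p = 0.0323). None of these 4 calls held with every library left out in turn. The difference of LC from CC was 0.45 (adjusted p = 0.206) without CC replicate 1 and also lost its call without Control replicate 3, LC replicate 2, or LL replicate 1 or 2, while without CC replicate 2 it was 1.13 (adjusted p = 0.0342). That of LL from LC was lost without LL replicate 1 or 2, CL replicate 1, Control replicate 1 or LC replicate 2 (highest adjusted p 0.131), and that of LC from CL without LC replicate 1 and without replicate 1 or 2 of CL or LL (highest adjusted p 0.086). The call of CL against Control was lost without any of the 3 Control libraries and without replicate 1 or 2 of CL, CC or LL (highest adjusted p 0.246). Without LC replicate 1 the difference was 0.78 from CC (adjusted p = 0.0499) and 0.82 from CL (adjusted p = 0.0504), and LL lay -0.78 from LC (adjusted p = 0.0427). In TPM, which the authors scaled to all reads of the table with no length term, the lowest LC library stood at 239.7 and the highest of the other regimes at 203.7, so LC lay above the other regimes on that scale too. Over the 24 alternatives run, which include other scalings and filters, adjusted p ranged from 0.00633 to 0.206 for LC against CC (15 calls), from 0.00588 to 0.176 for LL against LC (16 calls), from 0.00227 to 0.118 for LC against CL (17 calls) and from 0.0090 to 0.246 for CL against Control (11 calls). With all reads of the table as the library total, CC and LL were called lower than Control as well, both at -0.80 (adjusted p = 0.0379 and 0.0338).

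The more widely shared name miR171b_2 set LC apart more sharply. Its LC libraries stood at 664, 605 and 501 CPM (1655, 1604 and 1099 reads), and its CC libraries at 286, 276 and 457 CPM (898, 670 and 1144 reads). The CL libraries stood at 214, 259.8 and 235 CPM (598, 747 and 686 reads), those of LL at 180.4, 317 and 282 CPM (476, 716 and 763 reads), and those of Control at 288, 264 and 268 CPM (704, 703 and 867 reads). Every LC library, the lowest at 500.6 CPM, lay above all 12 others, the highest of which was CC replicate 3 at 456.8 CPM. In TPM the gap was 70.2 against 57.0. The means were 589.9 ± 82.8 CPM in LC, 339.8 ± 102 in CC, 273 ± 12.9 in Control, 259.8 ± 71.0 in LL and 236 ± 23.0 in CL.

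miR171b_2 was 2.50-fold higher in LC than in CL (1.32 ± 0.25, adjusted p = 0.00138), 2.27-fold lower in LL than in LC (-1.18 ± 0.25, adjusted p = 0.00230) and 2.16-fold higher in LC than in Control (1.11 ± 0.25, adjusted p = 0.00506). These 3 calls held under all 24 alternatives run, with adjusted p between 6.41e-05 and 0.0408 for LC against CL, 3.24e-05 and 0.0216 for LL against LC, and 0.000714 and 0.0386 for LC against Control. It was also 1.74-fold higher in LC than in CC (0.80 ± 0.25, adjusted p = 0.0216), a call lost without CC replicate 1 (0.65, adjusted p = 0.0652), with library size only (0.70, adjusted p = 0.0796) and when only LC and CC libraries were fitted (adjusted p = 0.109). Below LC no neighbours differed, with adjusted p = 0.460 for CC against Control, 0.868 for LL against Control and 0.733 for LL against CL. Cool and warm leaves thus differed by a call under full light and not under 40% light, where the difference was 0.14. The light by temperature interaction, which tests whether these effects differ, gave -0.66 ± 0.35 (adjusted p = 0.176), and adjusted p ranged from 0.0235 to 0.226 over the alternatives, 7 of 24 of which called it. Among those 7 were the fits without LC replicate 1 (-0.99, adjusted p = 0.0424), Control replicate 2 (-1.21, adjusted p = 0.0402), CC replicate 3 (-0.96, adjusted p = 0.0391) and LL replicate 2 (-1.07, adjusted p = 0.0466).

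**Figure D1:**
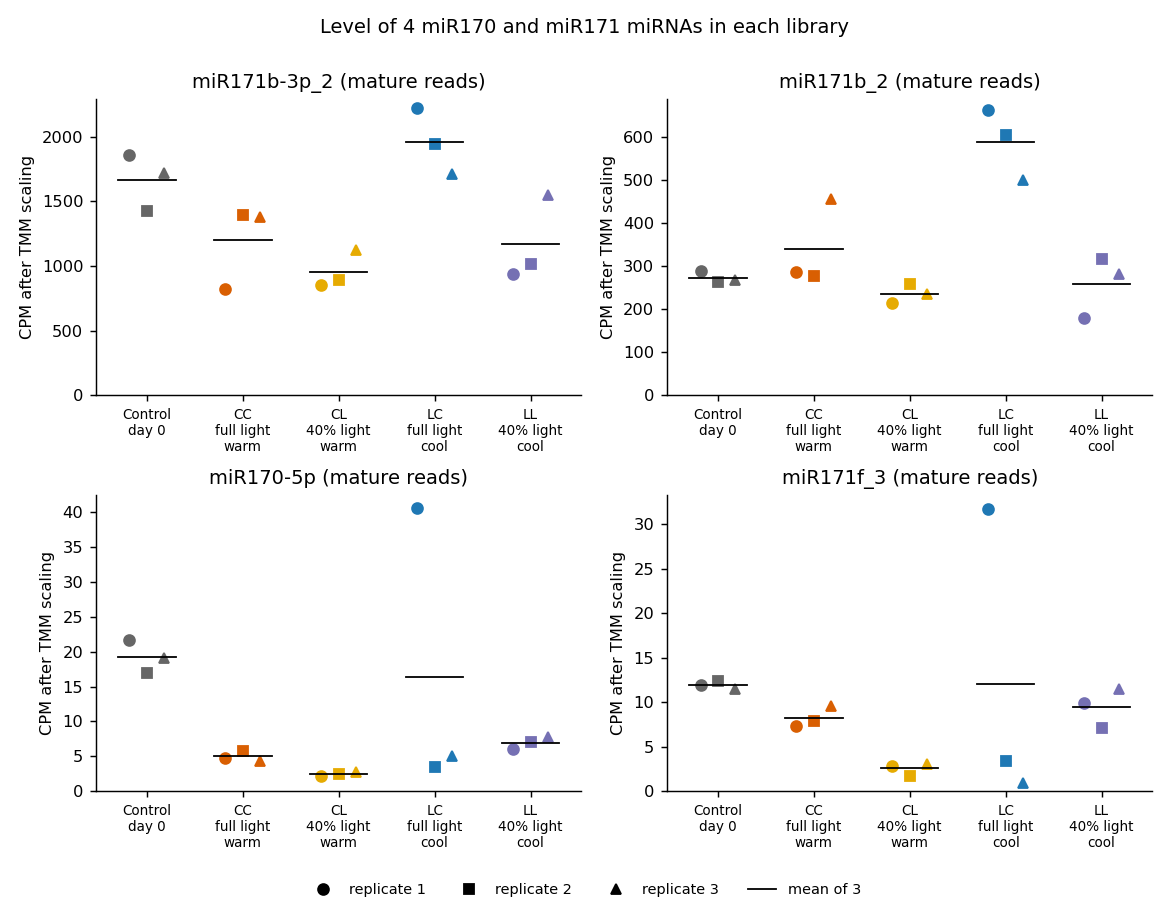
Level of the mature entries miR171b-3p_2, miR171b_2, miR170-5p and miR171f_3 in each of the 15 libraries, in CPM after TMM scaling on linear axes, by group; points are libraries, with a shape for each replicate, and lines the group means. The 3 LC libraries of miR171b_2 lie above all others, while the LC means of miR170-5p and miR171f_3 are raised by LC replicate 1, at 40.5 and 31.7 CPM.

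Over the 6 tested mature entries, 10 of 66 tests were called, and the share lay above that of all miRNAs only in CL against Control and LC against CL. In LC against CC 2 of 6 members were called, both higher, beside 42.5% of the 179 miRNAs tested. In LL against LC 2 were called, both lower (50.8% of all), in LC against Control 1, higher (36.3%), and in CL against Control 2, both lower (30.2%). In LC against CL 3 were called, all higher (37.4%). In the other comparisons edgeR called 0 of 6, namely LL against CL (26.8% of all called; 0 at an unadjusted p under 0.05 and 1 by DESeq2), CL against CC (17.3%; 0 and 0), CC against Control (19.0%; 1 and 1), LL against Control (16.2%; 0 and 0), LL against CC (20.7%; 0 and 0) and the interaction (34.6%; 0 and 2). The median log2 difference of the 6 tested members was 0.75 in LC against CC and -1.20 in LL against LC, beside 0.16 and -0.03 over all 179 miRNAs. These medians include miR171b-3p and miR171b-3p_3, whose reads alternated between the names from library to library, and miR170-5p and miR171f_3, whose values in LL against LC (-1.22 and -0.34) were 0.61 and 1.95 without LC replicate 1.

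**Figure D2:**
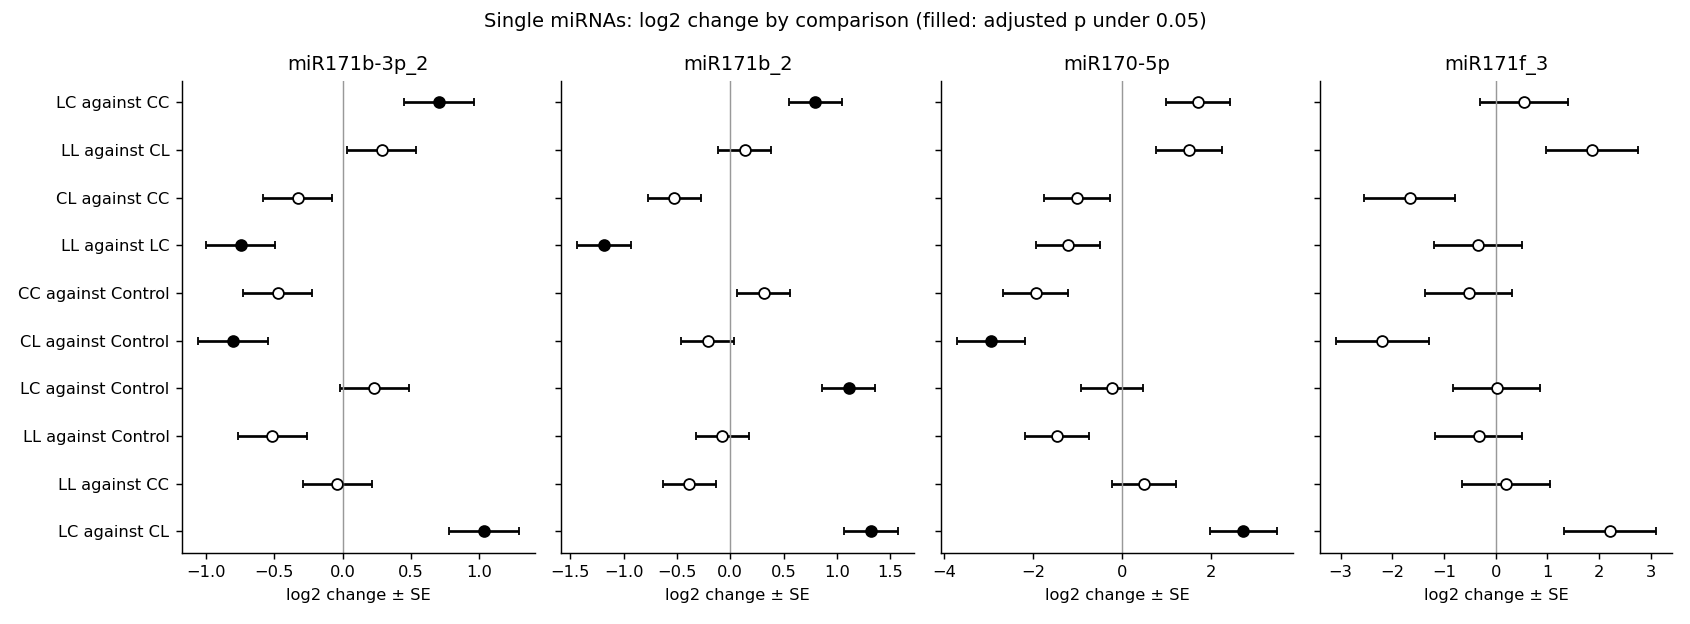
Log2 difference ± SE of the mature entries miR171b-3p_2, miR171b_2, miR170-5p and miR171f_3 in the 10 pairs of groups, from edgeR; filled points passed an adjusted p under 0.05. The calls lie in comparisons that involve LC and in CL against Control.

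The low-abundance miR170-5p was higher on day 0 than in 11 of the 12 libraries of day 14. It stood at 21.7, 16.9 and 19.1 CPM in Control (53, 45 and 62 reads), at 4.8, 5.8 and 4.4 CPM in CC (15, 14 and 11 reads), and at 2.1, 2.4 and 2.7 CPM in CL (6, 7 and 8 reads). The LL libraries stood at 6.1, 7.1 and 7.8 CPM (16, 16 and 21 reads) and the LC libraries at 40.5, 3.4 and 5.0 CPM (101, 9 and 11 reads). Control lay above CC, CL and LL without overlap, and LC replicate 1, which also stood apart in miR398, was the highest library of all. The other 2 LC libraries lay below every LL library.

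In the fit of all libraries miR170-5p was 7.76-fold lower in CL than in Control (-2.96 ± 0.76, adjusted p = 0.0113), and leaving out CL replicate 1 (adjusted p = 0.0629) or CL replicate 2 (adjusted p = 0.0782) ended the call. It was 6.58-fold higher in LC than in CL (2.72 ± 0.76, adjusted p = 0.0130), but the difference was 0.64 (adjusted p = 0.259) without LC replicate 1, and the call was also lost without CL replicate 1 or 2. The difference of LC from CC did not pass (1.70 ± 0.73, adjusted p = 0.0783), and it was -0.12 without LC replicate 1. CC lay -1.94 ± 0.73 from Control (adjusted p = 0.0897), LL -1.46 (adjusted p = 0.167) and LC -0.24 (adjusted p = 0.865). Without LC replicate 1 all 3 were called, at -2.19 (adjusted p = 0.000121) for CC, -1.70 (adjusted p = 0.00199) for LL and -2.32 (adjusted p = 0.000241) for LC. Without that library LL lay above CL by 1.25 (adjusted p = 0.0065), and the interaction turned from -0.21 (adjusted p = 0.924) to 1.37 (adjusted p = 0.0261). Control, CC, CL and LL hold no LC library. Comparisons among them changed through what the whole fit shares, its spread, scaling and adjustment of p.

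miR171f_3, a name shared by 12 plant names, was likewise lowest in CL among Control, CC, CL and LL, but its Control libraries overlapped with those of LL. It stood at 11.9, 12.4 and 11.4 CPM in Control (29, 33 and 37 reads), at 7.3, 7.8 and 9.6 CPM in CC (23, 19 and 24 reads) and at 9.9, 7.1 and 11.4 CPM in LL (26, 16 and 31 reads). It stood at 2.9, 1.7 and 3.1 CPM in CL (8, 5 and 9 reads) and at 31.7, 3.4 and 0.9 CPM in LC (79, 9 and 2 reads). The CL libraries lay below all of Control, CC and LL, and the LC libraries spanned the whole range, with replicate 1 again the highest.

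No comparison of miR171f_3 was called in the fit of all libraries. CL against Control came nearest among those not resting on LC, at -2.20 ± 0.90 (adjusted p = 0.0899), and LC against CL gave 2.21 (adjusted p = 0.0697). Without LC replicate 1, CL lay below Control by -2.17 (adjusted p = 0.0033) and below CC by -1.39 (adjusted p = 0.0434), and LL lay above CL by 1.63 (adjusted p = 0.0162). The remaining LC libraries then lay below CC (-1.71, adjusted p = 0.0214) and below Control (-2.49, adjusted p = 0.0036), LL lay above LC (1.95, adjusted p = 0.0105), and the interaction was 3.34 (adjusted p = 0.0036), where the fit of all libraries had given 0.54, 0.01, -0.34 and 1.33. Across the 15 libraries log2 levels of miR170-5p and miR171f_3 had a Pearson r of 0.80 and a Spearman rho of 0.85, and r was 0.71 without LC replicate 1. For miR171b_2 and miR171b-3p_2 r was 0.69. These libraries share their groups and scaling factors, so the correlations are descriptions.

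Ratios within a library do not depend on its scaling. For every 100 reads of miR171b-3p_2 there were 15.5, 18.5 and 15.6 reads of miR171b_2 in Control and 29.9, 31.1 and 29.3 in LC. The ratio was 34.6, 19.8 and 33.2 in CC, 25.0, 29.2 and 21.0 in CL, and 19.3, 31.3 and 18.2 in LL. Control thus held a lower share of miR171b_2 than CC, CL and LC without overlap, and LL overlapped with Control only through LL replicate 3. These ratios are described without a test.

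The low-abundance entries were set against the same name. For every 1000 reads of miR171b-3p_2 there were 11.7, 11.8 and 11.1 reads of miR170-5p in Control, 5.79, 4.14 and 3.19 in CC, 2.51, 2.73 and 2.44 in CL, and 6.47, 6.99 and 5.00 in LL. In LC there were 18.3, 1.74 and 2.93. The Control libraries were therefore above all others but LC replicate 1. For miR171f_3 the same ratio was 6.39, 8.68 and 6.65 in Control, 8.87, 5.61 and 6.96 in CC, 3.34, 1.95 and 2.75 in CL, 10.5, 6.99 and 7.38 in LL, and 14.3, 1.74 and 0.533 in LC. Here Control, CC and LL overlapped and CL lay below all 3.

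**Figure D3:**
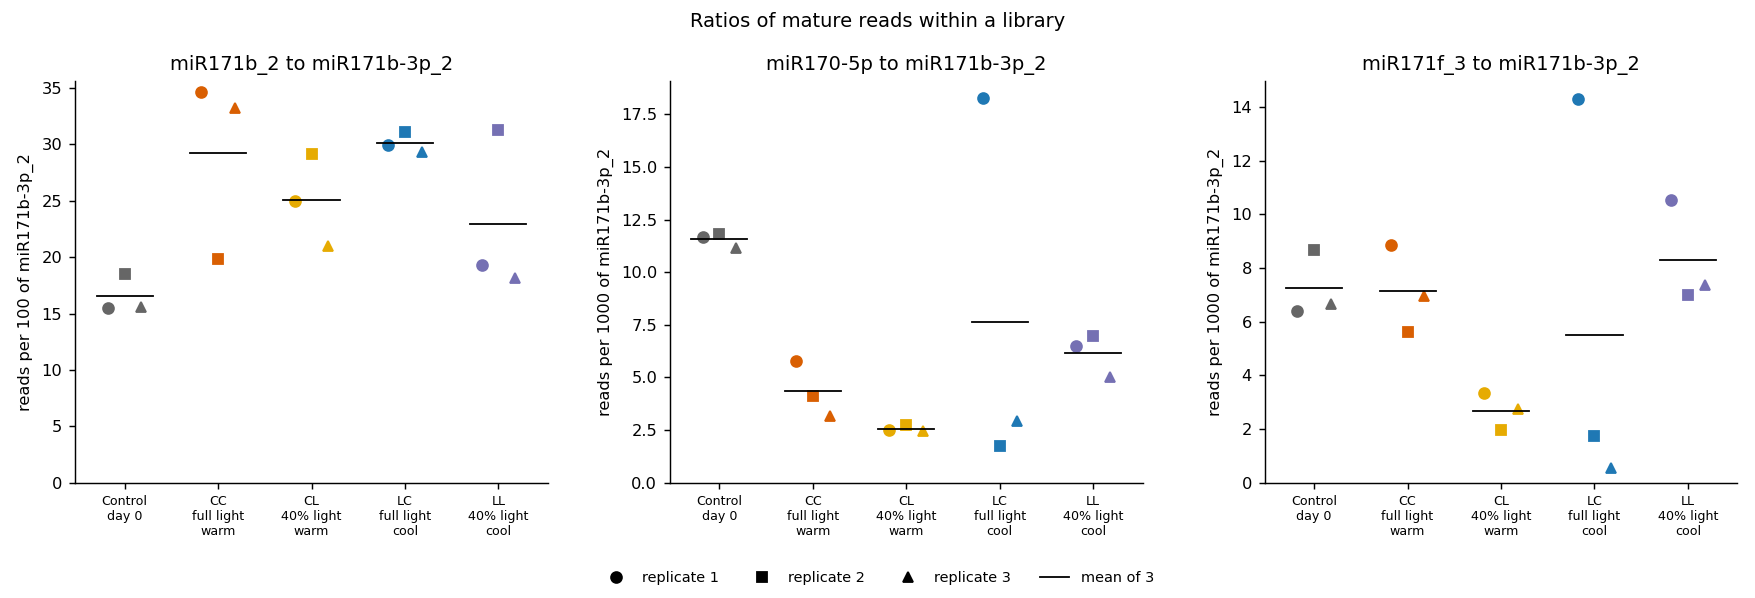
Ratios of mature reads within each of the 15 libraries, by group, on linear axes: miR171b_2 per 100 reads of miR171b-3p_2, and miR170-5p and miR171f_3 per 1000 reads of miR171b-3p_2; points are libraries, with a shape for each replicate, and lines the group means. Control has the lowest mean for miR171b_2 (16.5 per 100), and LC replicate 1 stands apart in the other panels, at 18.3 and 14.3 per 1000.

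The names miR171b-3p and miR171b-3p_3 took turns from library to library. Among mature reads the counts of miR171b-3p and miR171b-3p_3 were 4 and 181, 122 and 2, and 96 and 8 in the CC libraries, and 186 and 4, 218 and 4, and 1 and 334 in those of CL. They were 0 and 27, 66 and 1, and 79 and 2 in Control, 368 and 6, 166 and 0, and 5 and 146 in LC, and 0 and 17, 13 and 1, and 1 and 16 in LL. In each of the 15 libraries the larger name held 92.3% to 100% of the sum, miR171b-3p in 9 libraries and miR171b-3p_3 in 6, and both names led in at least 1 library of every group. The hairpin entries did the same, with the larger name holding 89.2% to 100%, but the larger name was the same as among the mature reads in 10 of 15 libraries only. How the authors divided reads between these names is not given in the sources used here, so the levels of the single names are not compared further. Neither was called by edgeR in any comparison. The nearest to a call was miR171b-3p in LL against LC, at -5.13 ± 2.25 (adjusted p = 0.0793, and 0.0119 by DESeq2).

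Their sum was formed after the counts were seen and is described without a test. Mature reads of both names together came to 27 to 81 in Control, 104 to 185 in CC, 190 to 335 in CL, 151 to 374 in LC and 14 to 17 in LL. In CPM the sum was 20.4 ± 8.11 in Control, 50.5 ± 8.71 in CC, 86.6 ± 24.7 in CL, 93.8 ± 48.8 in LC and 6.31 ± 0.123 in LL. CL and LC overlapped, and LC replicate 1 was the highest library at 150.1 CPM, against 62.6 and 68.8 in the other LC libraries. In reads, the LL libraries lay below and the CC, CL and LC libraries above every Control library. The hairpin sum did not follow: it came to 131 to 172 reads in Control, 160 to 190 in CC, 130 to 231 in CL, 210 to 451 in LC and 181 to 229 in LL. For every 100 hairpin reads there were thus 7.42 to 9.39 mature reads in LL and 96.1 to 258 in CL, with 18.4 to 51.1 in Control, 56.2 to 97.4 in CC and 36.8 to 178 in LC.

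**Figure D4:**
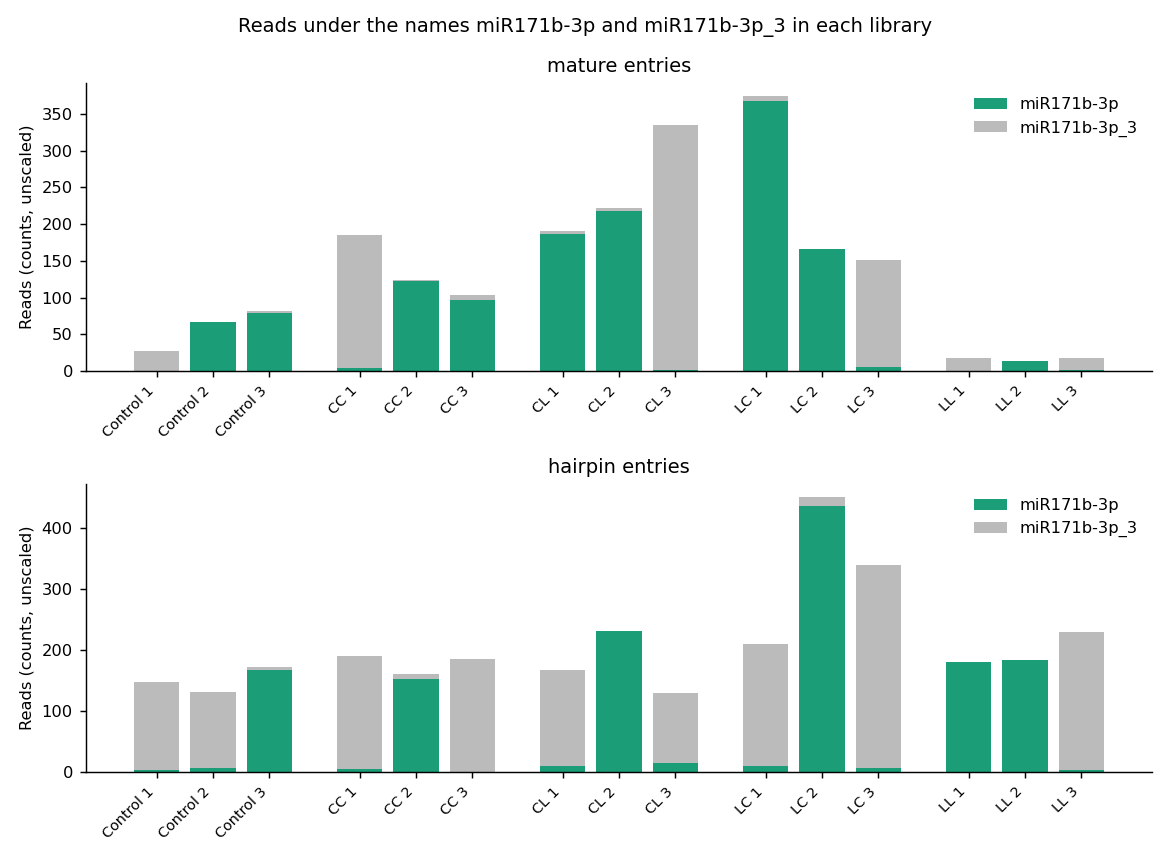
Reads (unscaled counts) under the names miR171b-3p and miR171b-3p_3, stacked, in each of the 15 libraries, for the mature and the hairpin entries. In nearly every bar 1 of the names holds almost all reads, and the mature sum is lowest in the LL libraries (14 to 17 reads).

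What sets a hairpin read apart from a mature read is not given in the sources used here. Levels of hairpin entries are CPM of mature, predicted and hairpin reads together. The hairpin entry of miR171b-3p_2 had its highest mean on day 0, at 614 ± 39.1 CPM in Control (1450, 1505 and 2088 reads), 480.0 ± 72.2 in LC (1668, 1450 and 1156 reads), 378 ± 97.3 in CL (871, 922 and 1376 reads), 354 ± 76.2 in LL (712, 769 and 1213 reads) and 312 ± 78.5 in CC (785, 940 and 1087 reads). It was 1.97-fold lower in CC than in Control (-0.98 ± 0.26, adjusted p = 0.0196). This was the only call among the 5 tested hairpin entries in that comparison, beside 17.6% of the 284 entries tested. The call of the miR171b-3p_2 hairpin was lost without CC replicate 1 or 2, any Control library or LC replicate 2 (adjusted p up to 0.125), and when only CC and Control libraries were fitted (0.0922), with 0.00995 to 0.125 over all alternatives. LL lay -0.79 from Control (adjusted p = 0.0583), CL -0.70 (adjusted p = 0.0697) and LC -0.35 (adjusted p = 0.335). Of 23 alternatives, 16 called CC against Control, 10 LL against Control (adjusted p 0.0188 to 0.131), 1 CL against Control and 0 LC against Control. In TPM, LC and Control overlapped, with LC replicate 1 at 102.4 and Control replicate 1 at 87.9. Against the mature reads of the same name, the hairpin reads came to 36.4 ± 3.96 per 100 in Control, 38.1 ± 3.38 in CL, 29.9 ± 1.91 in CC, 29.7 ± 1.42 in LC and 30.4 ± 2.74 in LL.

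No other hairpin entry was called, and in the other 10 comparisons edgeR called 0 of 5. The share of all entries called was 35.6% in LC against CC (1 member at an unadjusted p under 0.05, 0 by DESeq2), 23.9% in LL against CL (0 and 0), 12.3% in CL against CC (0 and 0), 44.4% in LL against LC (1 and 0) and 23.6% in CL against Control (1 and 0). It was 29.2% in LC against Control (1 and 0), 10.9% in LL against Control (1 and 1), 18.3% in LL against CC (0 and 0), 33.1% in LC against CL (1 and 0) and 27.8% in the interaction (0 and 0). The hairpin of miR171b_2 held 40, 26 and 25 reads in LC, 24, 12 and 20 in CC, 14, 21 and 19 in CL, 9, 15 and 19 in LL and 12, 15 and 35 in Control. LC lay above CC, CL and LL without overlap, as did its mature entry, but the difference of LC from CC (0.77 ± 0.38) did not pass (adjusted p = 0.141). The hairpin of miR171a_3 held 6 to 17 reads in a library. It came nearest to a call in LC against CL (0.86 ± 0.34, adjusted p = 0.0713), which 2 of 23 alternatives called. The names miR171a_3, miR171a-3p_1, miR171c-5p_4, miR171c_3, miR171c_4 and miR171d_1 together held 11 to 36 reads in a library, mature and hairpin, and 0.356% of the member reads. Apart from the hairpin of miR171a_3, their entries held too few reads to be tested. A precursor entry of the RNA family MIR171_1, listed separately, held 0 to 5 reads in a library.

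Summed by number, with mature and hairpin reads together and scaled by TMM over the named families alone, the miR171 family passed the test in no comparison when all 15 libraries were fitted. It held 6931, 6277 and 8866 reads in Control, 4728, 5327 and 6033 in CC, 4257, 4729 and 5850 in CL, 9602, 8899 and 6561 in LC, and 3907, 4032 and 6501 in LL. This came to 4137 ± 1272 CPM of family reads in Control, 3172 ± 535 in CC, 3537 ± 1158 in CL, 4029.8 ± 939.8 in LC and 3342 ± 622 in LL. LC differed from CC by 0.35 ± 0.31 (adjusted p = 0.427) and LL from LC by -0.27 (adjusted p = 0.490).

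The miR171 sum depended on the scaling more than the single miRNAs did. In TPM the groups separated into 519.7 ± 89.2 in LC and 427 ± 48.3 in Control against 263 ± 35.8 in CC, 249.7 ± 56.9 in LL and 244 ± 32.6 in CL. On that scale LC differed from CC by 0.98 (adjusted p = 0.00157), from CL by 1.09 (adjusted p = 0.00082), and LL from LC by -1.06 (adjusted p = 0.000847). With the scaling factors of the miRNA table in place of the family table, LC differed from CC by 0.74 (adjusted p = 0.0163). The median of all families itself moved by 0.63 in LC against CC and by -0.82 in LL against LC between all reads and TMM, and library size alone gave -0.12 for LC against CC. With relative-log-expression factors, which also scale miR171 against the other families, LL against LC (-0.71, adjusted p = 0.026) and the interaction (-0.96, adjusted p = 0.0383) were called. As a share of all reads miR171 was higher in LC than in the other regimes. Uncalled directions changed sign between TMM and all reads in CL against CC (0.16 and -0.11), LL against CL (-0.08 and 0.03), LC against Control (-0.04 and 0.28) and LL against CC.

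The miR170 family, 432 reads in all, held 57, 48 and 68 reads in Control, 17, 14 and 11 in CC, 7, 8 and 8 in CL, 112, 13 and 13 in LC, and 18, 16 and 22 in LL. This sum is the mature entry miR170-5p (395 reads), whose name also covers ath-miR171a-5p, and its hairpin (37 reads). The sum thus holds no mature guide-strand entry, and its results largely repeat those of miR170-5p. It was 5.96-fold lower in CL than in Control (-2.58 ± 0.79, adjusted p = 0.0158), and leaving out CL replicate 1 (adjusted p = 0.0617) or 2 (adjusted p = 0.0501) ended the call. It was 4.36-fold higher in LC than in CL (2.13 ± 0.78, adjusted p = 0.0404), but the difference was -0.02 (adjusted p = 0.993) without LC replicate 1, and the call was lost without any of 8 other libraries (adjusted p up to 0.132). Without LC replicate 1, LL lay above LC by 0.79 (adjusted p = 0.0334), where the fit of all libraries gave -0.86 (adjusted p = 0.340). LC then also lay below Control by -2.57 (adjusted p = 1.30e-05), where the fit of all libraries gave -0.45 (adjusted p = 0.626). In the fit of all libraries the calls among both families were 1 of 2 in CL against Control and 1 of 2 in LC against CL, beside 44.1% and 41.2% of the 34 families tested. In the other comparisons edgeR called neither, beside 44.1% in LC against CC (0 at an unadjusted p under 0.05, 0 by DESeq2), 35.3% in LL against CL (0 and 0), 26.5% in CL against CC (0 and 0), 38.2% in LL against LC (0 and 1), 29.4% in CC against Control (1 and 1), 32.4% in LC against Control (0 and 0), 26.5% in LL against Control (0 and 0), 14.7% in LL against CC (0 and 0) and 29.4% in the interaction (0 and 1).

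**Figure D5:**
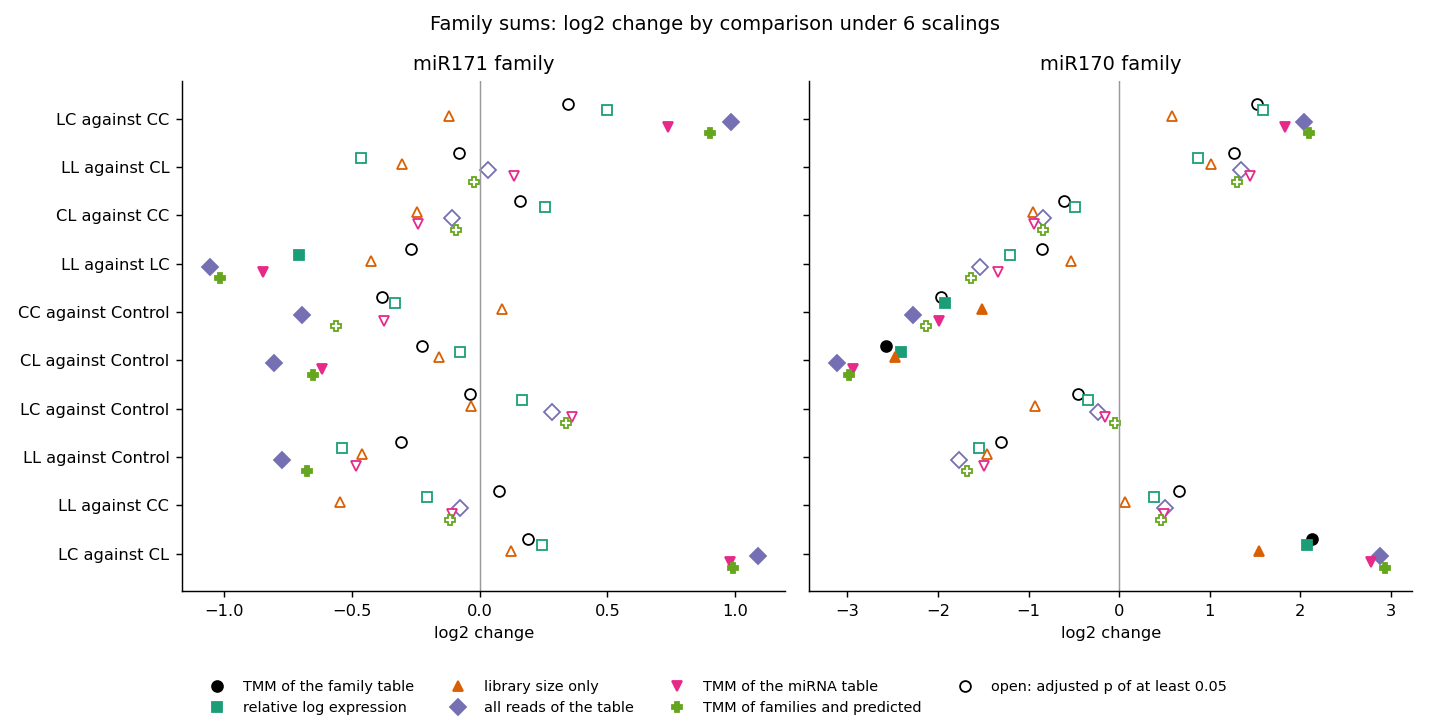
Log2 difference of the miR171 and miR170 family sums in the 10 pairs of groups under 6 scalings of the counts, each marked by its own symbol as in the key, filled where the adjusted p was under 0.05. In LC against CC the miR171 values run from -0.12 with library size only to 0.98 with all reads of the table.

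Families of the same developmental setting were fitted in the same table, on the TMM scale of the family sums. Of the shoot meristem and leaf development families, miR160, miR164, miR165, miR166, miR319, miR390, miR394 and miR396, all but miR165 were tested, 7 of 8. Of these, 1 was called lower in LC against CC, CL against CC and LC against Control, 1 higher in LL against CL and LL against LC, and 2 higher in CC against Control, LL against Control and the interaction. In CL against Control 1 was higher and 1 lower, and in LC against CL 1 was higher and 2 lower. Over all 34 families the share called was 44.1% in LC against CC and in CL against Control. It was 26.5% in CL against CC and in LL against Control, and 29.4% in CC against Control and in the interaction. In LC against Control it was 32.4%, in LL against CL 35.3%, in LL against LC 38.2% and in LC against CL 41.2%. The list family called in LC against CC was miR164, which limits the NAC factors of organ boundaries and ageing, with a log2 difference of -3.63 ± 0.46 (adjusted p = 2.95e-05). miR164 was lower in CL than in CC (-1.78) and in LC than in Control (-1.18, called under 4 of 6 scalings), and higher in LL than in LC (2.74), in CC than in Control (2.45) and in LL than in Control (1.57). miR319, a regulator of TCP factors of leaf shape, was higher in LL than in CL (1.21, called under 1 of 6 scalings), in CC than in Control (1.39) and in LL than in Control (1.39). In CL against Control miR396, which represses growth-regulating factors, was higher (1.14) and miR390, which triggers trans-acting siRNAs, lower (-0.83), and LC differed from CL by 0.99 in miR390, -0.93 in miR396 and -1.86 in miR164. The list median was -0.23 in LC against CC and 0.54 in LL against CL, beside 0.10 and 0.34 over all 34 families.

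Of the phase-change families, miR156, miR157, miR172 and miR529, all but miR529 were tested, 3 of 4. miR156, which represses the SPL factors that in Arabidopsis interact with the GRAS targets of miR171, was higher in LC than in CC (1.20 ± 0.34, adjusted p = 0.00955), in LC than in Control (0.99) and in LC than in CL (0.98), and lower in LL than in LC (-1.86). On the TMM scale of the family sums no other family of this list was called in these comparisons, but miR157 was called lower in LL than in LC under 4 of 6 scalings, as were miR166 and miR390 of the first list under 5. miR172 was called in LC against Control under 4 of 6 scalings and in LC against CL under 2. For miR157 the calls came under 2 in LC against CC and under 1 in LC against CL. miR157 was lower in LL than in CL (-0.84). Of the 3 tested, 1 was called in LC against CC (44.1% of all 34 families), LC against Control (32.4%) and LC against CL (41.2%). LL against LC (38.2%), LL against CL (35.3%) and the interaction (29.4%) also called 1. On the TMM scale none was called in CL against CC (26.5%), CC against Control (29.4%), CL against Control (44.1%), LL against Control (26.5%) or LL against CC (14.7%). In LL against Control miR156 and miR157 were each called lower under 4 of 6 scalings. The interaction was called for miR156 at -2.08, miR164 at 4.52 and, under 1 of 6 scalings, miR319 at 2.12. For miR171 the interaction was -0.43 ± 0.44 (adjusted p = 0.664), and 8 of 27 alternatives called it. On the TMM scale of the family sums no family of either list was called in LL against CC, but under 5 of 6 scalings miR156 (-0.65 on the TMM scale) and miR164 (-0.89) were called lower there, miR390 under 3, miR157 under 2 and miR166 under 1. The counts of both lists depended on the scaling: of the 110 tests of their families, 22 were called on the TMM scale of the family sums, and of the other 88 tests 32 were called under at least 1 other scaling, 12 of them under at least 4 of the 6. All values called on that TMM scale and named from these lists kept their sign under the 6 scalings. The calls of miR319 in LL against Control and in the interaction were made under 1 of them, that of miR396 under 3 in LC against CL and 4 in CL against Control, that of miR319 in CC against Control under 4, and those of miR390 in CL against Control and miR156 in LC against CC under 5.

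The miRNAs whose log2 levels were most like those of miR171b-3p_2 over the 15 libraries were miR390a-5p (Pearson r = 0.83), miR156a-5p (0.78), miR168a-5p (0.76), the predicted novel_mir54 (0.74) and miR157d-3p (0.71), of 178 compared. Least like it was the predicted novel_mir19 (-0.88). Among families, miR390 (0.69), miR845 (0.59), miR156 (0.58), miR166 (0.58) and miR170 (0.56) were most like miR171. Their Spearman rho with miR171 was 0.71, 0.40, 0.575, 0.31 and 0.39 in that order. Over the means of the 5 groups, r with miR171 was -0.15 for miR166 and 0.63 to 0.70 for the others. The families most like miR170 were miR398 (0.75), miR845 (0.70), miR397 (0.67), miR399 (0.63) and miR168 (0.60). miR398 and miR170 were both high in the Control libraries and in LC replicate 1. In the LL libraries miR398 was also high, at 29.9% to 45.2% of the reads of named families. miR170 stood at 12.4 to 13.4 CPM of family reads there, against 21.2 to 40.6 in Control. These LL values lay above those of CC (6.4 to 9.2), CL (4.0 to 6.5) and LC replicates 2 and 3 (5.2 and 6.7).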

How the data were processed

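Small-RNA libraries were made from leaf total RNA (RNeasy kit) with the Small RNA Sample Pre Kit, amplified, and cut by size from polyacrylamide gels, per the labels' protocols. The authors deposited raw counts of reads per small-RNA entry, and TPM values that are, per the file headers and the values, each count scaled to the reads of the whole table with no length term. Only the counts were tested. The aligner, the genome build, the databases and how multiply matching reads were counted are not stated in the sources used here, and the table holds names without sequences.

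Counts were fitted with edgeR 4.0.16 (R 4.3.3, limma 3.58.1), with filterByExpr defaults, TMM factors and 1 mean per group over 15 libraries. 3 tables were fitted: 35 families (34 tested), 243 mature and predicted miRNAs (179 tested), and 419 entries with hairpins added (284 tested). Their biological coefficients of variation were 0.469, 0.679 and 0.710. All 10 pairs of groups and the interaction (LL - CL) - (LC - CC) were compared. The SE was taken as the size of the log2 change divided by the root of F. The fit was also run on simulated data with changes set in LC alone, the outcome of which is not given here. The depth is 3925 to 9714 member reads a library, so entries of a few reads have little precision.

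Named with values in every library were family sums and entries of at least 10 CPM in a group, and likeness was Pearson r of log2 CPM with a prior count of 2. The members and lists were chosen with earlier results of these data known. Alternatives were DESeq2 1.42.0, other scalings and filters, mature reads alone, both families merged, fits of only the groups compared, a block for the replicate number, and each library left out. Replicate numbers showed no pairing on average: deviations of 30 same-numbered pairs had a mean r of -0.0122 (miRNAs) and 0.0120 (families). Single pairs ran from -0.41 to 0.46 (miRNAs) and from -0.74 to 0.76 (families). A mean over all pairs cannot exclude a pairing between some of the groups. Figures were drawn with matplotlib 3.10.9 in Python 3.11.15.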

Additional observations from a re-analysis of the deposited data

How the results depend on the processing

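For single mature entries, 1489 of 1576 values under alternatives kept their side of the threshold, and for hairpin entries 1229 of 1260. In those, 87 and 137 uncalled values changed sign without a call, as did 45 of 594 family values, the cause of which was not tested. Called values changed sign without LC replicate 1 only: miR170-5p in the interaction (1.37), miR171f_3 in LC against CC (-1.71), LL against LC (1.95) and LC against Control (-2.49), and the miR170 family in LL against LC (0.79) and LC against CL (-0.016). The cause of the changes below was not tested either. For the miR171 family, calls were gained when library size was all reads of the table, in LC against CC (0.98), LL against LC (-1.06), CC against Control (-0.70), CL against Control (-0.80), LL against Control (-0.77), LC against CL (1.09) and the interaction (-0.95). They were gained with families beside predicted miRNAs in LC against CC (0.90), LL against LC (-1.02), CL against Control (-0.65), LL against Control (-0.68), LC against CL (0.99) and the interaction (-0.92). With the scaling of the miRNA table they were gained in LC against CC (0.74), LL against LC (-0.85), CL against Control (-0.62) and LC against CL (0.98); both of these alternatives were chosen after seeing the data. DESeq2 and relative-log-expression factors both gave calls in LL against LC (-0.71) and the interaction (-0.96), and the groups compared alone in the interaction (-1.15). For the miR170 family, LC against CC was called with all reads (2.04), beside predicted miRNAs (2.09) and with miRNA scaling (1.83). These calls include LC replicate 1, with 112 reads against 13 and 13 in the other LC libraries and 17, 14 and 11 in CC. On the TMM scale the difference was 1.52 (adjusted p = 0.121), and -0.15 without LC replicate 1. CC against Control was called with all reads (-2.28), DESeq2 (-1.93), library size only (-1.52), groups compared alone (-1.97), relative-log-expression factors (-1.92) and miRNA scaling (-1.99). Groups compared alone also called LL against CL (0.94) and LL against Control (-1.53). The call of miR170 in LC against CL was lost with mature reads alone (2.20), the groups compared alone (2.25) and the replicate block (1.75). Merged, both families were called in LL against LC (-0.61) and LL against Control (-0.72), and not in CL against Control (-0.34) or LC against CL (0.22).

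Leaving out each library in turn gave the miR171 family 0.21 to 0.56 in LC against CC, -0.59 to 0.19 in LL against CL, -0.12 to 0.65 in CL against CC, -0.62 to -0.27 in LL against LC, -0.85 to -0.16 in CC against Control, -0.80 to -0.089 in LL against Control and -1.15 to -0.15 in the interaction. Calls of miR171 were gained without LC replicate 1 in LL against CL (adjusted p = 0.0498), CL against CC (0.0225), CC against Control (0.00684), LL against Control (0.0108) and the interaction (0.0203). They were gained without Control replicate 1 in CL against CC (0.032), CC against Control (0.0239), LL against Control (0.0401) and the interaction (0.0169), without LL replicate 1 in CL against CC (0.0304), CC against Control (0.0105) and the interaction (0.0314), and without CC replicate 3 in LL against LC (0.0465) and LL against Control (0.0357). It gave the miR170 family -0.15 to 2.00 in LC against CC, 0.73 to 1.41 in LL against CL, -1.34 to 0.79 in LL against LC, -2.42 to -1.78 in CC against Control, -2.81 to -2.38 in CL against Control, -2.57 to 0.031 in LC against Control, -1.82 to -1.11 in LL against Control and -0.016 to 2.61 in LC against CL. It gave miR171f_3 -0.88 to 1.95 in LL against LC and -2.49 to 0.54 in LC against Control. With the replicate number as a block, the 4 calls of miR171b_2 (LC against CC 0.82), the 4 of miR171b-3p_2 and both of miR170-5p (CL against Control -2.92) were kept. Of 15 libraries, 4 correlated best with their own number over miRNAs and 7 over families. Depth limits miR170-5p and miR171f_3, at 6 to 101 and 2 to 79 reads a library.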
